A study of Mus musculus with 6 samples.

Results

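The glycolysis and hypoxia response genes are the glucose transporters, the enzymes that split glucose to pyruvate and lactate, and other genes that hypoxia-inducible factor (HIF) is known to switch on. The set named 34 genes, of which 30 were measured, among 22180 genes in all. Each was represented by the array row with the highest mean among rows annotated with that symbol alone. Aldoa and Ankrd37 had only rows shared with another gene, and Gpi1 and Eno1 had no row under their symbol. Members were a list of names, with no threshold on measured values.

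The samples were pools of whole mouse hearts (strain C57BL/6) at embryonic day 9.5, and gene expression was measured on Affymetrix arrays as log2 values. In the 3 Hdac3-Isl1KO pools the genotype was Hdac3-flox/flox; Isl1-Cre, and in the 3 control pools it was Hdac3-flox/flox, so both groups carried the floxed gene and the controls had no Cre allele. Hdac3 encodes a histone deacetylase, and Isl1-Cre acts in Isl1-expressing cells, which include second heart field progenitors, while the other cells of the heart keep the gene. The sources used here do not state how many hearts made a pool or how pools relate to litters. The p-values therefore measure only how these pools vary, part of which may be technical. Since the controls lack Cre, an effect of Isl1-Cre itself and the loss of Hdac3 cannot be told apart.

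Glycolysis turns glucose into pyruvate in the cytosol, and lactate dehydrogenase then exchanges pyruvate with lactate. HIF is a dimer whose alpha subunit is hydroxylated by the EGLN enzymes when oxygen is present and is then degraded through the von Hippel-Lindau protein; when oxygen is short the dimer binds the core sequence ACGTG or GCGTG and raises transcription of glycolytic genes and of genes for vessel growth, pH control and matrix. The heart at this stage develops in a low-oxygen embryo and is known to draw on glycolysis before mitochondria mature.

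To show the letters that HIF could read, the 250 bases before an annotated start are given for 4 members. They are those with the largest differences, Ldhb and Egln3, and the relative of each, Ldha (its first listed start) and Egln1. The sequences are RefSeq's, build GRCm38.p6, at chr6:142507958-142508207, minus strand (Ldhb), chr7:46845554-46845803, plus strand (Ldha), chr12:54203875-54204124, minus strand (Egln3) and chr8:124949255-124949504, minus strand (Egln1). Capitals mark ACGTG or GCGTG on either strand, and CACGTG counts once per strand.
Ldhb: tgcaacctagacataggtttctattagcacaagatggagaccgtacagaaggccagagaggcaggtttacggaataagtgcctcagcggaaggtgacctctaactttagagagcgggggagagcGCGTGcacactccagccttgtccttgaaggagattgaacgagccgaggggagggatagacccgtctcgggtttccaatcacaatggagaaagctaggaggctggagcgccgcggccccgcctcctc
Ldha: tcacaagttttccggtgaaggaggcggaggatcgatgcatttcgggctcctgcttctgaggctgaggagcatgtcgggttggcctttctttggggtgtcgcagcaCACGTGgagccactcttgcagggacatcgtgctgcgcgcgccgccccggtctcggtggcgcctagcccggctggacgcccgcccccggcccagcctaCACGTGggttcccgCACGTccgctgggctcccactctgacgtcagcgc
Egln3: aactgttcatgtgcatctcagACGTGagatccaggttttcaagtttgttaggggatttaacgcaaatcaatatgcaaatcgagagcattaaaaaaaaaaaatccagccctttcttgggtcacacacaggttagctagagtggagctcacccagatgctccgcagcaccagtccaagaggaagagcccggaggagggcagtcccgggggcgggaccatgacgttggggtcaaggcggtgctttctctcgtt
Egln1: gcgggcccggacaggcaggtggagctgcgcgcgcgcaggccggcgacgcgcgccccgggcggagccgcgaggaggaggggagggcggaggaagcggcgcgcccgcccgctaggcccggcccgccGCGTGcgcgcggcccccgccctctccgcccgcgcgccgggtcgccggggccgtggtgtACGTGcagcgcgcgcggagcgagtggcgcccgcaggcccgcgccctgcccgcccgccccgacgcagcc

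The Ldha stretch held 5 matches, Egln1 2, and Ldhb and Egln3 1 each. In windows of 300 bases, which run on to 50 bases after the start, 13 of 15 windows of the other hypoxia members held either motif (86.7%) and 24 of 32 windows of the glycolytic members did, against 43.8% of all 32851 windows. ACGTG alone stood in 80.0% of the hypoxia windows, 40.6% of the glycolytic windows and 19.6% of all windows. These motifs hold CG, and the median GC content was 69.0% in hypoxia windows and 58.2% in glycolytic windows against 52.7% in all. Windows were found for 32 of the 34 genes, and of the windows of Vegfa the first held no match and the second 2. A match describes the letters and is not a binding site.

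The arrays were alike in scale, with array medians between 5.64 and 5.71 and correlations between arrays from 0.980 to 0.989. Hdac3 read 9.11, 9.20 and 9.31 on the log2 scale in Hdac3-Isl1KO hearts and 9.67, 9.73 and 9.64 in Hdac3-flox/flox hearts. Its groups did not overlap, and the difference of -0.47 (95% interval -0.66 to -0.29) missed the threshold of 0.05 (limma adjusted p = 0.0636), but passed in 5 of 15 alternatives, with adjusted p-values from 0.00108 to 0.244 over all of them. Whether its probes read the deleted exons was not tested. Isl1, whose locus drives the Cre, overlapped between groups and differed by -0.033 (limma adjusted p = 0.913). Heart muscle markers were the brightest of the marker lists, with mean log2 levels over 14 genes of 11.44 to 11.47 in Hdac3-Isl1KO arrays and 11.51 to 11.53 in Hdac3-flox/flox arrays. The heart muscle mean levels did not overlap between groups, with 11 genes below zero, a median of -0.076 and 0 called by limma. Of the 14 genes, 9 lay below without overlap (12.4% of all genes) and 1 above (9.41% of all genes). Markers of some other tissues also moved with genotype. The mean level of 10 trophoblast and decidua markers lay at 6.81 to 6.87 in Hdac3-Isl1KO arrays against 5.92 to 6.17 in Hdac3-flox/flox arrays, with 6 genes called higher and 1 lower, and that of 10 yolk sac and hepatic endoderm markers at 5.74 to 5.80 against 5.25 to 5.44, with 1 called higher. The level of 8 epicardial markers lay at 7.55 to 7.58 against 8.01 to 8.10, with 3 called lower. That of 10 pharyngeal endoderm and epithelial markers lay at 6.07 to 6.11 against 5.75 to 5.83. Of these 10, 0 were called and 7 were higher at an unadjusted p under 0.05 (limma). Over all genes limma called 0.23% higher and 0.198% lower. At an unadjusted p under 0.05, 6.57% of all genes were higher and 7.96% lower (limma). The 7 of 10 erythroid markers measured (8.72 to 8.79 against 8.74 to 8.78), 8 endothelial markers (8.85 to 8.88 against 8.87 to 8.93) and 8 neural markers (5.48 to 5.64 against 5.47 to 5.52) overlapped between groups in their mean levels. Of the erythroid markers 2 lay above without overlap (9.41% of all genes) and 3 below (12.4% of all genes), among them Hbb-bh1 (0.28) and Slc4a1 (-0.28). With limma 0 of them were called, and 2 were higher and 1 lower at an unadjusted p under 0.05. The part of these tissues in the members' values was not tested, and in whole hearts fewer cells of a type and less RNA per cell cannot be told apart.

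Across the set, transcript levels in whole hearts differed little between genotypes. With limma, 0 of the 30 measured members passed an adjusted p of 0.05, where 0.428% of all genes did, and 6 members had an unadjusted p under 0.05 (20.0%), against 14.5% of all genes and 19.5% of the 9211 genes at least as bright as the dimmest member. Of these 6, Slc2a3, Hk2 and Egln3 read higher in Hdac3-Isl1KO, a direction that 6.57% of all genes had at that p, and Ldhb, Pfkm and Vegfa read lower, as 7.96% of all genes did. The median difference was -0.012 on the log2 scale over the members and 9.4e-05 over all genes. The largest differences were 1.32-fold (Egln3, higher) and 1.30-fold (Ldhb, lower). The 95% intervals of 29 of 30 members lay within 1.5-fold in either direction, and that of Egln3 reached 1.57-fold higher. All 30 intervals lay within 2-fold. These bounds hold for whole hearts, in which Hdac3 itself differed by 1.39-fold, and not for the cells with Isl1-Cre alone. The groups did not overlap for 15 members, or 50%, against 21.8% of all genes. Among the 9211 genes at least as bright as the dimmest member the share was 33.5%, which is not matched to each member's own level. Of the 15 members, Hdac3-Isl1KO lay above in 8 (9.41% of all genes) and below in 7 (12.4% of all genes). Several of these gaps were small, as in Tpi1 (difference -0.027) and Pfkp (-0.026). The pooled SD between pools had a median of 0.052 over all 30 members. Its lowest value, 0.011, was that of Pkm, whose groups overlapped.

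**Figure D1:**
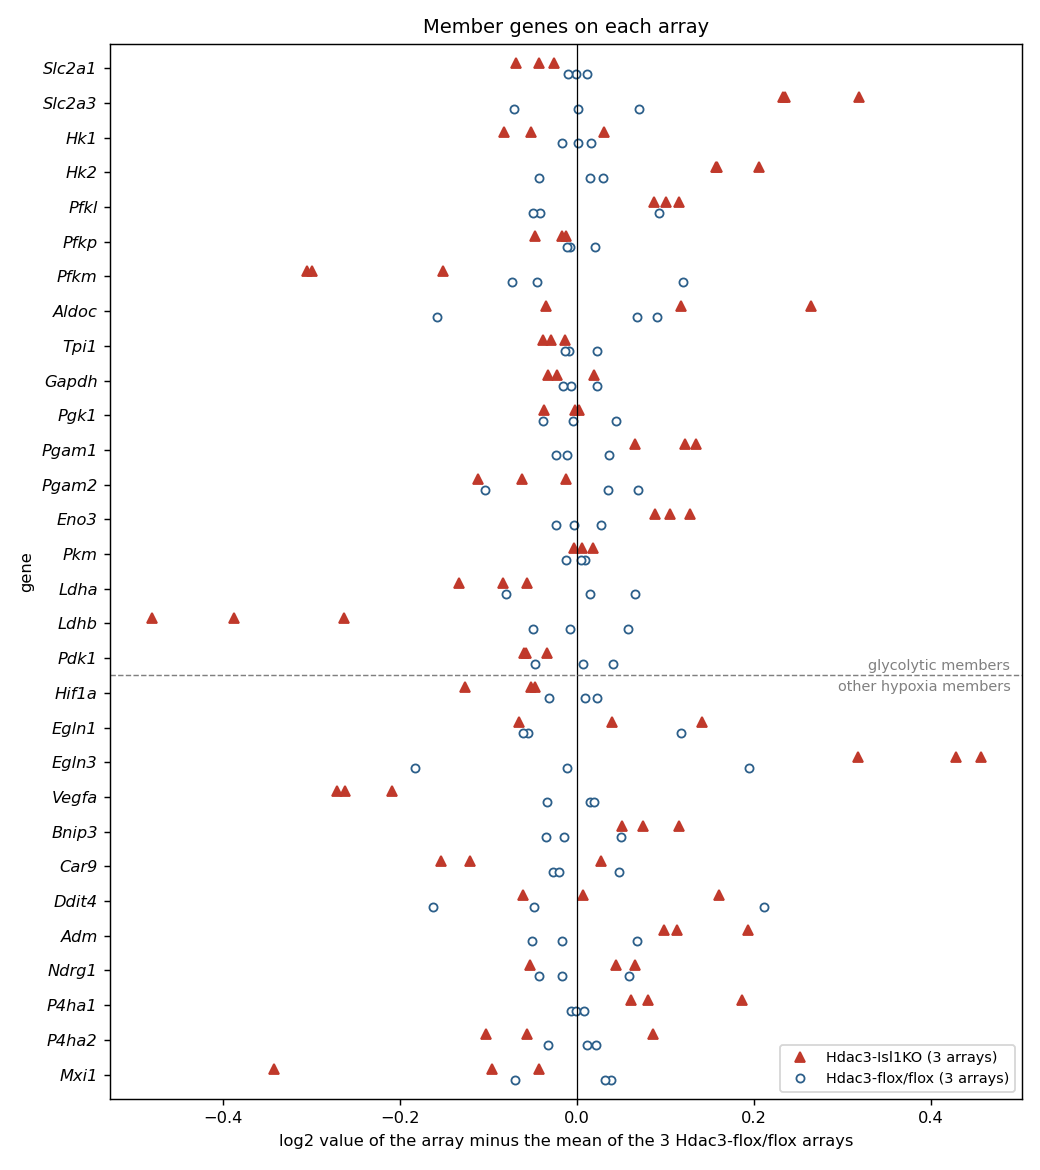
Log2 value of each member on each of the 6 arrays minus the gene's mean over the 3 Hdac3-flox/flox arrays (x axis), with 1 gene per line. Hdac3-Isl1KO arrays are triangles and Hdac3-flox/flox arrays open circles. The groups do not overlap for 15 members. Among them, Ldhb, Pfkm and Vegfa lie left of all control arrays and Slc2a3, Hk2 and Egln3 right of them. Most other members stay within 0.2 of zero.

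The members bring glucose in through a pair of transporters. Slc2a1, the GLUT1 transporter of most embryonic cells, read 12.54, 12.52 and 12.50 in Hdac3-Isl1KO hearts and 12.58, 12.56 and 12.56 in Hdac3-flox/flox hearts. The groups sit 0.046 apart with the knockout below (95% interval -0.19 to 0.098, limma adjusted p = 0.777), a sign that turned under quantile normalization (0.012). Slc2a3, the high-affinity GLUT3 transporter known from neurons, trophoblast and early embryos, read 9.62, 9.63 and 9.71 in Hdac3-Isl1KO against 9.39, 9.46 and 9.32 in Hdac3-flox/flox. All knockout arrays lie above all control arrays. The difference was 0.26 (95% interval 0.095 to 0.43), or 1.20-fold, with a limma adjusted p of 0.191. This p came to 0.0174 with a variance prior fitted against expression level and ranged from 0.0174 to 0.429 over the alternatives. With that prior limma called 866 of all 22180 genes, against 95 as reported. A dimmer row of Slc2a1 differed by -0.097 (-0.74 to 0.55).

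The upper steps, from glucose to triose phosphate, had 7 of 9 enzymes measured, with 3 differences above zero, 4 below and a median of -0.026. Hexokinase traps glucose in the cell. Hk2, the insulin- and HIF-responsive hexokinase of muscle, read 8.79, 8.75 and 8.74 in Hdac3-Isl1KO against 8.60, 8.62 and 8.54 in Hdac3-flox/flox. Its groups did not overlap, and the difference of 0.17 (95% interval 0.024 to 0.32) had a limma adjusted p of 0.284 (0.0973 to 0.501 over the alternatives). The housekeeping hexokinase Hk1 read 8.96, 8.87 and 8.84 in Hdac3-Isl1KO against 8.93, 8.94 and 8.91 in Hdac3-flox/flox, with overlapping groups and a difference of -0.035 (-0.19 to 0.12).

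Phosphofructokinase, the main control point of the pathway, has 3 isoforms, and all were measured. Pfkm, the muscle isoform, read 8.19, 8.35 and 8.20 in Hdac3-Isl1KO against 8.45, 8.62 and 8.42 in Hdac3-flox/flox. Every knockout array was below every control array, and the difference was -0.25 (95% interval -0.45 to -0.052, limma adjusted p = 0.255, range over the alternatives 0.0790 to 0.490). The liver isoform Pfkl read 9.62, 9.60 and 9.59 in Hdac3-Isl1KO against 9.46, 9.60 and 9.45 in Hdac3-flox/flox, a difference of 0.10 (-0.064 to 0.27) in which control replicate 2 met the knockout values. The platelet isoform Pfkp read 10.66, 10.66 and 10.63 in Hdac3-Isl1KO against 10.70, 10.67 and 10.66 in Hdac3-flox/flox, a difference of -0.026 whose sign turned under quantile normalization (0.0010). Aldolase C (Aldoc), the brain aldolase that splits fructose bisphosphate, spread widely, at 7.27, 7.13 and 6.97 in Hdac3-Isl1KO against 6.85, 7.10 and 7.08 in Hdac3-flox/flox, and its difference was 0.12 (-0.14 to 0.37), or 0.041 without Hdac3-Isl1KO replicate 1, 0.19 without Hdac3-Isl1KO replicate 3 and 0.036 without Hdac3-flox/flox replicate 1. Triose phosphate isomerase (Tpi1) was even across arrays, at 11.89, 11.88 and 11.91 in Hdac3-Isl1KO against 11.95, 11.91 and 11.91 in Hdac3-flox/flox. Its difference was -0.027 (-0.17 to 0.12). For Aldoa, the muscle aldolase, the only row was shared with its retrogene Aldoart1. That row averaged 6.48 in Hdac3-Isl1KO and 6.54 in Hdac3-flox/flox, dimmer than any measured glycolytic member. It differed by -0.061 (-0.27 to 0.15, limma adjusted p = 0.829 over all rows), and how far it reads Aldoa was not tested.

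The lower steps, from triose phosphate to pyruvate, had 6 of 7 enzymes measured, with 3 above zero, 3 below and a median of -0.0026. All but Pgam2 were among the brightest genes of the array. Gapdh, often used as a loading control, read 13.27, 13.26 and 13.32 in Hdac3-Isl1KO against 13.29, 13.32 and 13.28 in Hdac3-flox/flox. Its difference of -0.012 had a 95% interval of -0.16 to 0.13 and turned sign under quantile normalization (0.047). Gapdh has processed pseudogenes, 3 of them under its own symbol in the gene table, and 8 further rows were shared with pseudogene symbols. Those shared with Gm12070 differed by only -0.018 to 0.0081. The row shared with Gapdh-ps15 was far dimmer, at a mean of 6.30 in Hdac3-Isl1KO against 6.59 in Hdac3-flox/flox, and differed by -0.29. Gapdh rows may thus read more than 1 source. Pgk1, an X-linked kinase that makes ATP, read 12.28, 12.24 and 12.27 in Hdac3-Isl1KO against 12.32, 12.27 and 12.24 in Hdac3-flox/flox, a difference of -0.013 (-0.16 to 0.14). The pyruvate kinase gene Pkm read 11.96, 11.98 and 11.97 in Hdac3-Isl1KO against 11.97, 11.95 and 11.97 in Hdac3-flox/flox. Its difference, 0.0068 (-0.14 to 0.15), was the smallest of the members and turned sign under quantile normalization (-0.011) and median centring (-0.0063).

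Pgam1 and Eno3 stood above their controls on every array. The phosphoglycerate mutase Pgam1 read 10.77, 10.76 and 10.70 in Hdac3-Isl1KO against 10.67, 10.62 and 10.61 in Hdac3-flox/flox, a difference of 0.11 (95% interval -0.043 to 0.26, limma adjusted p = 0.495). Eno3, the muscle enolase, read 11.29, 11.30 and 11.33 in Hdac3-Isl1KO against 11.19, 11.22 and 11.17 in Hdac3-flox/flox, also a difference of 0.11 (-0.039 to 0.25, limma adjusted p = 0.480). The muscle mutase Pgam2 overlapped between groups, at 8.15, 8.25 and 8.20 in Hdac3-Isl1KO against 8.30, 8.33 and 8.16 in Hdac3-flox/flox, and differed by -0.062 (-0.24 to 0.12). A dimmer row of Pgam1 differed by 0.14 (-0.30 to 0.59), and Pgam1 and Pgk1 have 2 pseudogenes each under their symbols.

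All 3 pyruvate and lactate enzymes had differences below zero, with a median of -0.092 and 0 called. Ldhb, the heart-type subunit of lactate dehydrogenase that predominates in oxidative muscle, read 7.78, 7.99 and 7.87 in Hdac3-Isl1KO against 8.25, 8.32 and 8.21 in Hdac3-flox/flox. The Hdac3-Isl1KO arrays were all lower than the Hdac3-flox/flox arrays. Ldhb thus differed by -0.38 (95% interval -0.57 to -0.19), or 1.30-fold lower, with an unadjusted p of 0.00224 and a limma adjusted p of 0.123. It passed with a variance prior fitted against expression level (limma adjusted p = 0.0124) and when genes below the median row were left out (0.0281), and ranged from 0.0123 to 0.345 over the alternatives. These settings called 866 and 617 genes in all, against 95 as reported, and the second tested fewer genes. Left-out arrays moved the difference between -0.43 and -0.33. Ldha, the muscle-type subunit and a classic HIF target, read 10.36, 10.41 and 10.44 in Hdac3-Isl1KO against 10.51, 10.56 and 10.41 in Hdac3-flox/flox, with overlapping groups and a difference of -0.092 (-0.26 to 0.075, limma adjusted p = 0.602). The gene table lists 3 pseudogenes under Ldha's symbol and 1 under Ldhb's. Pdk1, the kinase that inhibits pyruvate dehydrogenase in the mitochondrion and is a HIF target, read 8.81, 8.83 and 8.81 in Hdac3-Isl1KO against 8.87, 8.91 and 8.82 in Hdac3-flox/flox, a difference of -0.051 (-0.20 to 0.099) that turned to 0.0068 with the mean of its rows.

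**Figure D2:**
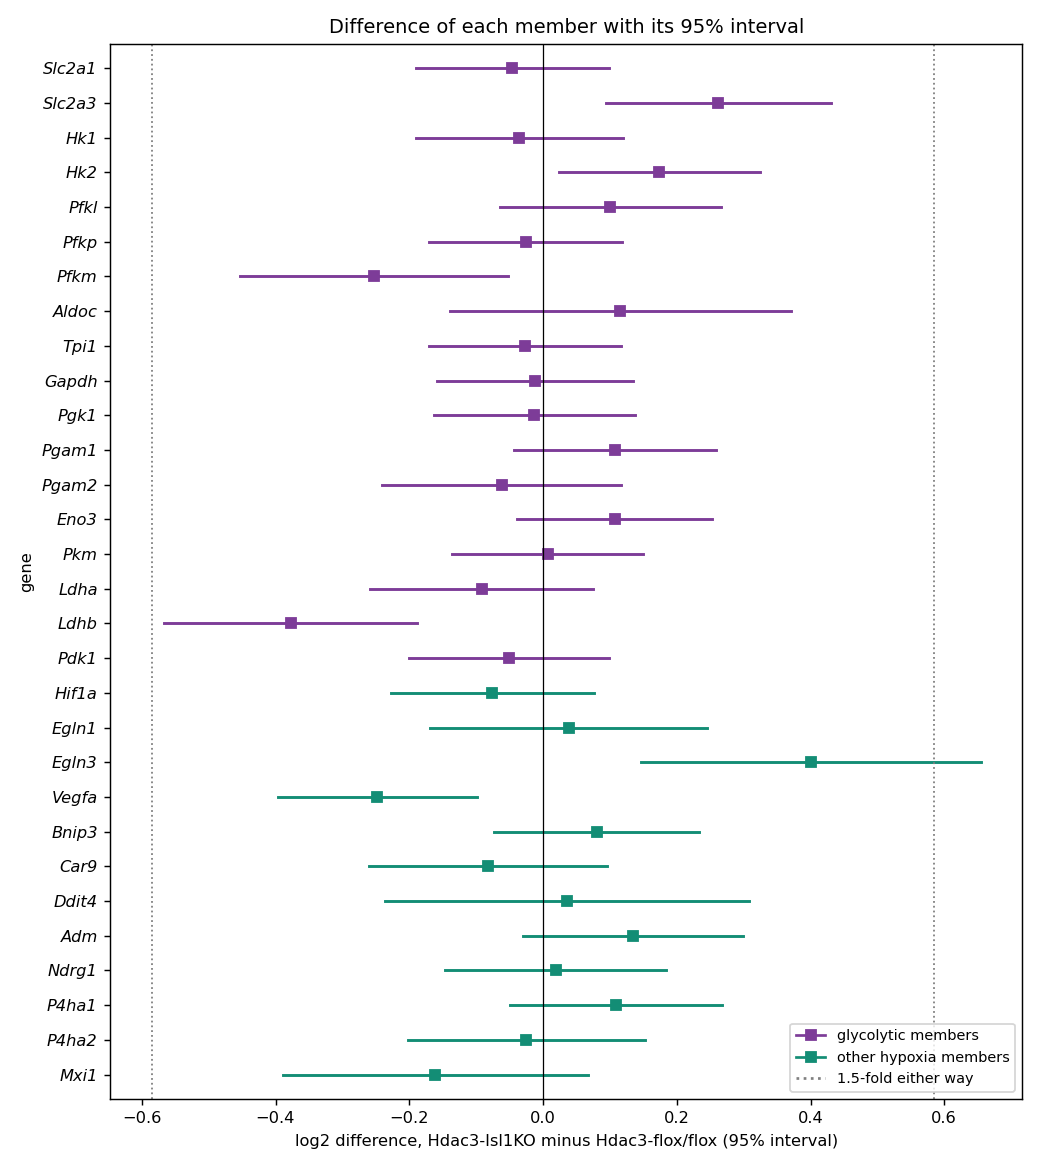
Log2 difference of each member, Hdac3-Isl1KO minus Hdac3-flox/flox (squares, x axis), with the 95% interval of the limma fit on 3 arrays per group. Glycolytic members are above and other hypoxia members below; the dotted lines mark 1.5-fold, which the interval of Egln3 alone crosses, while those of Ldhb, Vegfa, Pfkm, Hk2, Slc2a3 and Egln3 do not reach zero.

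On the hypoxia side, the oxygen-sensing genes came first. Hif1a, the oxygen-regulated HIF subunit, read 9.83, 9.91 and 9.91 in Hdac3-Isl1KO against 9.98, 9.97 and 9.93 in Hdac3-flox/flox. The groups did not overlap, but the difference of -0.076 had a 95% interval of -0.23 to 0.076 (limma adjusted p = 0.643). HIF activity is set mostly by protein stability, which arrays do not measure. Egln1, the main prolyl hydroxylase, read 8.91, 8.70 and 8.81 in Hdac3-Isl1KO against 8.71, 8.88 and 8.71 in Hdac3-flox/flox, and its difference of 0.038 (-0.17 to 0.24) turned sign without Hdac3-Isl1KO replicate 1 (-0.013). Egln3, a prolyl hydroxylase that is itself a HIF target, read 6.83, 6.94 and 6.97 in Hdac3-Isl1KO against 6.71, 6.50 and 6.33 in Hdac3-flox/flox. It had the largest difference of the members, with all knockout arrays above all controls. The difference was 0.40 (95% interval 0.15 to 0.65), with an unadjusted p of 0.00740 and a limma adjusted p of 0.188 (0.0609 to 0.418 over the alternatives). The control arrays of Egln3 were among the most scattered values of the set (SD 0.19).

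Of 10 other hypoxia targets 9 were measured, 5 above zero and 4 below, with a median of 0.019 and 0 called. Vegfa, which drives vessel growth, read 9.75, 9.82 and 9.76 in Hdac3-Isl1KO against 10.04, 9.99 and 10.04 in Hdac3-flox/flox. The groups were tight and well apart. The difference was -0.25 (95% interval -0.40 to -0.099), which is 1.19-fold lower, at a limma adjusted p of 0.173. It passed with the prior fitted against expression level (limma adjusted p = 0.00853) and with genes below the median row left out (0.0442), and ranged up to 0.402. Those settings called 866 and 617 genes in all, against 95 as reported. Left-out arrays moved the difference between -0.27 and -0.24.

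Adm, the vasodilator peptide adrenomedullin, read 7.87, 7.77 and 7.79 in Hdac3-Isl1KO against 7.62, 7.74 and 7.66 in Hdac3-flox/flox, a difference of 0.13 (95% interval -0.030 to 0.30, limma adjusted p = 0.433) with groups apart. P4ha1, a collagen prolyl hydroxylase, read 9.03, 8.92 and 8.90 in Hdac3-Isl1KO against 8.83, 8.84 and 8.85 in Hdac3-flox/flox, a difference of 0.11 (-0.049 to 0.27). Bnip3, a mitophagy receptor, read 8.60, 8.64 and 8.58 in Hdac3-Isl1KO against 8.51, 8.58 and 8.49 in Hdac3-flox/flox, a difference of 0.080 (-0.073 to 0.23). In all 3 genes each Hdac3-Isl1KO array lay above each Hdac3-flox/flox array. Mxi1, a MYC antagonist, read 7.48, 7.78 and 7.73 in Hdac3-Isl1KO against 7.86, 7.86 and 7.76 in Hdac3-flox/flox, a difference of -0.16 (-0.39 to 0.067) in which Hdac3-Isl1KO replicate 1 lay far below the rest; without it the difference was -0.070.

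The remaining targets overlapped between the groups, as Mxi1 did. Car9, a surface carbonic anhydrase widely used as a hypoxia marker, read 7.21, 7.03 and 7.07 in Hdac3-Isl1KO against 7.23, 7.16 and 7.17 in Hdac3-flox/flox, a difference of -0.082 (-0.26 to 0.096). The mTOR inhibitor gene Ddit4 read 6.86, 6.93 and 7.09 in Hdac3-Isl1KO against 6.88, 7.14 and 6.76 in Hdac3-flox/flox, a difference of 0.035 (-0.24 to 0.31). Ndrg1, a stress-response gene, differed by 0.019 (-0.15 to 0.18) and P4ha2, the second collagen hydroxylase, by -0.025 (-0.20 to 0.15), a sign that turned under quantile normalization (0.017). Ankrd37 shared its row with Lrp2bp, and that row differed by 0.036 (-0.19 to 0.27).

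Set against each other, the glycolytic and the other hypoxia members did not part by genotype. The 18 glycolytic members had a median difference of -0.019 (7 above and 11 below zero) and the 12 hypoxia members one of 0.027 (7 above and 5 below), against 9.4e-05 over all genes. With each gene centred on its mean over the 6 arrays, the glycolytic class averaged -0.0028, 0.0083 and -0.015 in Hdac3-Isl1KO arrays and 0.00052, 0.040 and -0.030 in Hdac3-flox/flox arrays. The hypoxia class averaged 0.0047, 0.0087 and 0.015 in Hdac3-Isl1KO arrays and 0.0081, 0.023 and -0.060 in Hdac3-flox/flox arrays. For both classes the control arrays spread around all 3 knockout arrays. The median of the hypoxia members was -0.017 without Hdac3-flox/flox replicate 3, the lowest array for both classes.

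**Figure D3:**
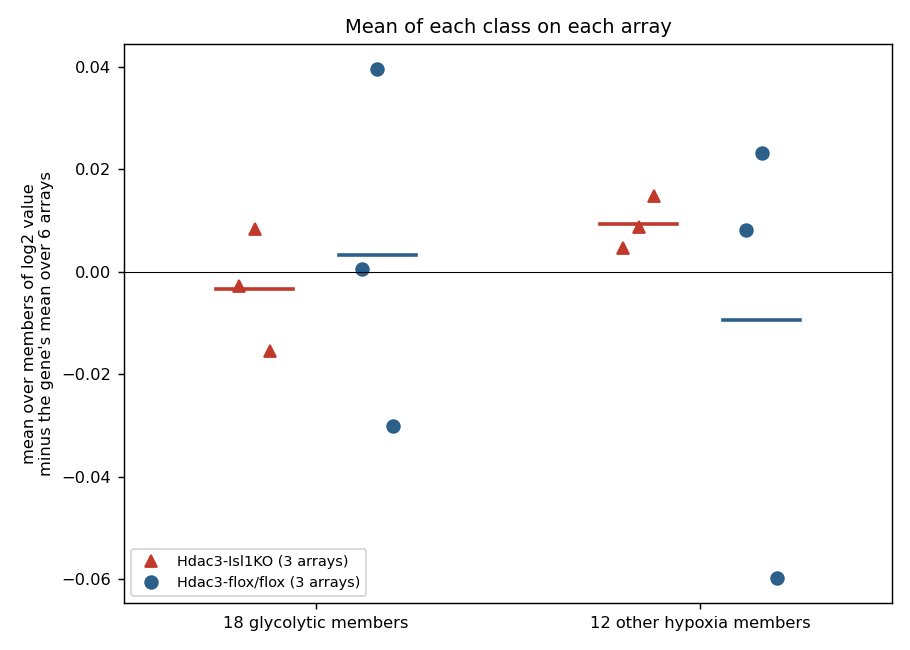
Mean over the members of each class of the log2 value minus the gene's mean over the 6 arrays (y axis), for Hdac3-Isl1KO arrays (triangles) and Hdac3-flox/flox arrays (circles), with lines at group means. In both classes the Hdac3-flox/flox arrays lie above and below all Hdac3-Isl1KO arrays.

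There were 9 pairs of measured members from the same family, and the change of 1 gene relative to its relative was tested over the 6 arrays. On the log2 scale Ldhb lay lower by 0.29 relative to Ldha in Hdac3-Isl1KO. Pfkm lay lower by 0.35 relative to Pfkl and by 0.23 relative to Pfkp. Slc2a3 lay higher by 0.31 relative to Slc2a1, Hk2 by 0.21 relative to Hk1, and Egln3 by 0.36 relative to Egln1. Pgam2 differed by -0.17 relative to Pgam1, P4ha1 by 0.13 relative to P4ha2, and Pfkl by 0.13 relative to Pfkp. For every pair but Egln3 and Egln1 the groups did not overlap and the two-sided exact permutation p was 0.10, the smallest that 3 against 3 arrays allow. For Egln3 and Egln1 the exact p was 0.20. Taken singly, 21.8% of all genes did not overlap, and 33.5% of those at least as bright as the dimmest member. The share among other pairs of genes was not counted, and the Pfk pairs share genes, so the pairs are not independent. Adjusted over the 9 pairs the exact permutation p-values were 0.113 and 0.20, so this exact test, with its smallest p of 0.10, could not call any of them. A model-based test of the pairs was not run.

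**Figure D4:**
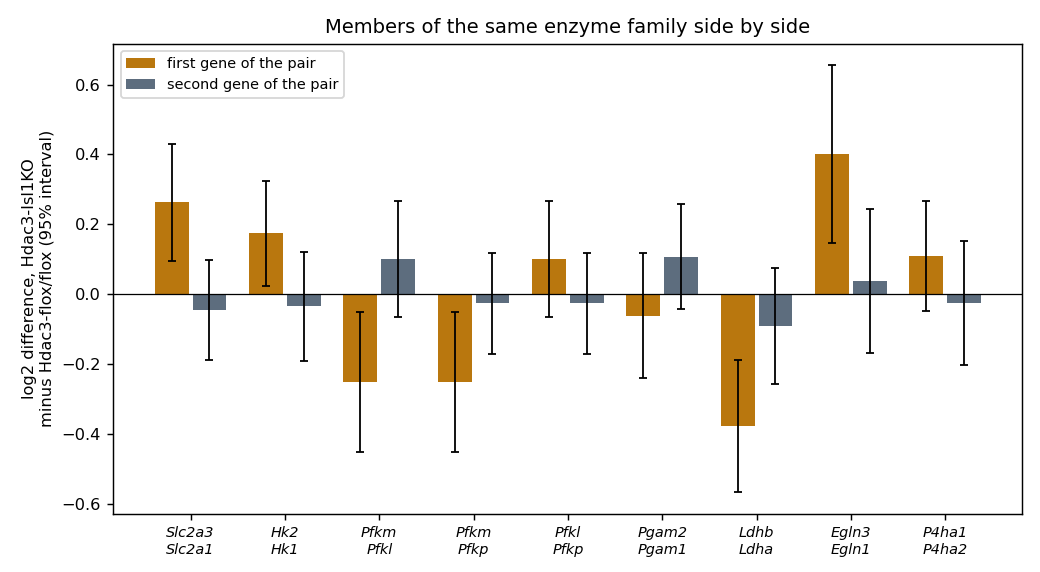
Log2 difference, Hdac3-Isl1KO minus Hdac3-flox/flox, of both genes of each of the 9 same-family pairs (bars from 0, with 95% intervals of the limma fit), the first-named gene in orange and the second in grey. The first gene lies farther from zero in every pair but Pgam2 and Pgam1.

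Genes around the set were counted in lists made by function. Over all 22180 genes, 11093 lay above zero and 11087 below. Without overlap between groups, 9.41% of all genes lay above and 12.4% below. At an unadjusted p under 0.05, 6.57% were higher and 7.96% lower (limma). With the prior fitted against expression level limma called 866 of all genes, against 95 as reported. Of 22 other glycolysis genes 0 were called with limma, 6 lay above and 16 below zero, and the median was -0.044. Lowest by p were Slc2a4 (-0.28), the insulin-responsive GLUT4 transporter, Pgm2 (-0.18), a phosphoglucomutase, Pgk2 (-0.15), the testis isoform of the kinase and here dim at a mean of 2.85 in Hdac3-Isl1KO against 3.00 in Hdac3-flox/flox, and Pfkfb2 (-0.21), a regulator of phosphofructokinase. Their groups did not overlap, and limma adjusted p-values ran from 0.222 to 0.378.

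Downstream of pyruvate, 11 of 15 genes of the pyruvate dehydrogenase and lactate transport list lay below zero, with a median of -0.12 and 0 called. At an unadjusted p under 0.05 (limma) there were 4, all lower, where 7.96% of all genes were lower. Pdhb and Pdha1, the beta and alpha subunits of the enzyme that feeds pyruvate into the citric acid cycle, differed by -0.28 and -0.18. Pdhb read 10.29, 10.27 and 10.27 in Hdac3-Isl1KO against 10.59, 10.46 and 10.61 in Hdac3-flox/flox. Dld, the subunit shared with other dehydrogenases, differed by -0.25, and Pdk4, a kinase that inhibits the complex, by -0.23. Limma adjusted p-values of these 4 were 0.173 to 0.337, and with the prior fitted against expression level Pdhb had 0.00808 and Pdha1 and Dld also passed. Dlat and Pdhx, further subunits, differed by -0.059 and 0.0030, with overlapping groups.

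In the list of gluconeogenesis and glycogen genes 13 of 16 lay below zero (median -0.085, 0 called with limma). At an unadjusted p under 0.05 (limma) 5 were lower, where 7.96% of all genes were. Pck2, the mitochondrial form of the enzyme that makes phosphoenolpyruvate, read 7.56, 7.46 and 7.37 in Hdac3-Isl1KO against 7.96, 7.73 and 7.86 in Hdac3-flox/flox, a difference of -0.38 (limma adjusted p = 0.141, and 0.0221 with the prior fitted against expression level). The glycogen phosphorylase genes Pygm and Pygb, of muscle and brain, differed by -0.25 and -0.21, and the glucose-6-phosphatase gene G6pc3 by -0.22 (limma adjusted p from 0.204 to 0.271). With that prior Pygm and Pygb passed too (limma adjusted p = 0.0156 and 0.0331). The 6 pentose phosphate genes all lay above zero, with a median of 0.066, 0 called and 0 at an unadjusted p under 0.05 with limma. Rpia (0.17), Pgd (0.12), Pgls (0.083) and Taldo1 (0.049) had its smallest p-values.

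The widest differences lay among the HIF subunits and regulators, although 0 of 15 were called. Epas1, which encodes HIF-2 alpha, known in endothelium, read 6.40, 6.56 and 6.58 in Hdac3-Isl1KO against 6.11, 6.08 and 6.12 in Hdac3-flox/flox, a difference of 0.42 (95% interval 0.24 to 0.59, limma adjusted p = 0.0839). Hif3a, whose products include an inhibitor of HIF, read 7.19, 7.08 and 6.99 in Hdac3-Isl1KO against 7.61, 7.61 and 7.46 in Hdac3-flox/flox, a difference of -0.47 (-0.67 to -0.28, limma adjusted p = 0.0808). Cited2, which competes with HIF for the coactivators CBP and p300 and is needed for heart development in mice, read 11.29, 11.24 and 11.26 in Hdac3-Isl1KO against 10.90, 10.93 and 10.90 in Hdac3-flox/flox. Its difference was 0.35 (0.20 to 0.50, limma adjusted p = 0.0804). For these 3 genes the groups were well apart, and each passed in 5 of 15 alternatives, among them the prior fitted against expression level (limma adjusted p = 0.0314, 0.00791 and 0.000366). The ubiquitin ligase gene Siah2 differed by 0.29 (limma adjusted p = 0.274). Vhl, Arnt and Hif1an, which encode the HIF degradation factor, the constant subunit and the asparagine hydroxylase, differed by 0.035, -0.010 and 0.0018.

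Of 32 further hypoxia targets 16 lay above and 16 below zero, with a median of -0.0067 and 0 called with limma. At an unadjusted p under 0.05 (limma) 3 were higher and 3 lower, where 6.57% and 7.96% of all genes were. Cited2 belongs to this list too. Fam162a, a mitochondrial protein gene, read 10.55, 10.41 and 10.43 in Hdac3-Isl1KO against 10.07, 10.13 and 10.00 in Hdac3-flox/flox, a difference of 0.39 (limma adjusted p = 0.0973, and 0.00191 with the prior fitted against expression level). Kdm3a, a histone demethylase, and Tfrc, the transferrin receptor of iron uptake, differed by -0.25 and -0.29 (limma adjusted p = 0.205 and 0.237, and 0.0311 and 0.0406 with that prior).

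**Figure D5:**
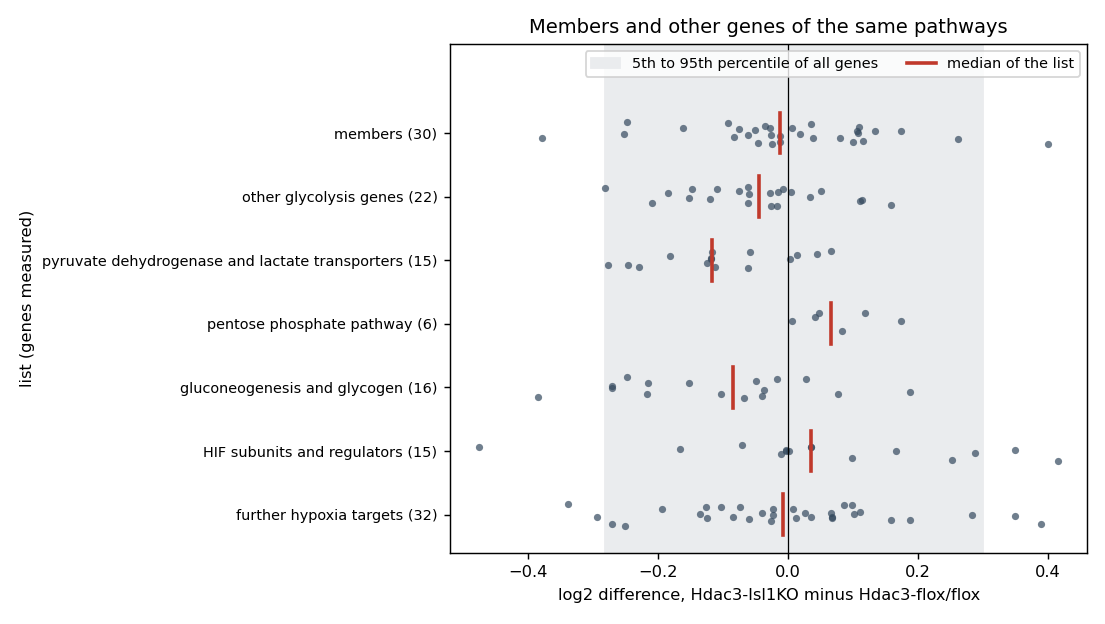
Log2 difference, Hdac3-Isl1KO minus Hdac3-flox/flox, of the 30 members and of the genes of 6 neighbouring lists (dots, 1 per gene, spread vertically at random for legibility), with each list's median in red and the 5th to 95th percentile of all genes (-0.28 to 0.30) shaded. Most dots lie inside the shaded range, and medians run from -0.12 (pyruvate dehydrogenase and lactate transporters) to 0.066 (pentose phosphate pathway).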

How the data were processed

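Gene expression was measured on 6 Affymetrix arrays, 3 per genotype, from pooled hearts; per the labels' protocols, cDNA was made from 100 ng of total RNA. The authors deposited log2 expression values, made with oligo and RMA per the submitters' processing notes; RMA subtracts background, quantile normalizes and summarises probes. The sources used here give no versions, genome build or detection calls, so dim genes cannot be separated from background, and their differences are compressed.

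Of 41345 rows, 23521 carried 1 gene symbol and gave 22180 genes, each by its brightest row; no dim genes were removed. Each difference takes Hdac3-flox/flox from Hdac3-Isl1KO. Tests were two-sided, in R 4.3.3 by limma 3.58.1 (a linear model with eBayes, constant prior), and p-values were adjusted over all genes by Benjamini-Hochberg. The steps were tested on simulated data. Pairs of relatives used an exact permutation test. The rule for named genes takes all members, Hdac3, Isl1 and, of each pathway list, the 4 genes with the smallest p, plus Dlat, Pdhx, Vhl, Arnt and Hif1an, chosen after their values were seen. It also takes 2 genes per marker list, but beyond the erythroid pair, markers are given here by count and level only. Members and lists were chosen with earlier results of these data known. The alternatives tried were leaving out each array, a replicate block, other scalings, dim-gene filters, row averaging, other priors, array weights and another threshold.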

Additional observations from a re-analysis of the deposited data

How the results depend on the processing

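With 0 members called by limma as reported (6 at an unadjusted p under 0.05), 2 passed with genes below the median row left out (Ldhb and Vegfa), and 3 with a prior fitted against expression level, robust or not (Ldhb, Vegfa and Slc2a3). Of 22180 genes tested, limma called 95 as reported (0.428%) and 866 with the prior fitted against expression level, robust or not. It called 144 under quantile normalization, 243 with array weights and 317 at an adjusted p threshold of 0.1. With genes below the 25th percentile or the median row left out, fewer genes were tested, and 235 and 617 were called. Leaving out 1 array gave 2 (without Hdac3-Isl1KO replicate 1 or Hdac3-flox/flox replicate 3) to 25 genes (without Hdac3-flox/flox replicate 2) and 0 members (4 to 5 at an unadjusted p under 0.05). With the replicate block limma called 0 genes (2744 at an unadjusted p under 0.05) and 0 members (5); deviations of same-numbered arrays correlated at -0.020, -0.078 and 0.034, so the numbers were not taken to pair the pools. Of 30 members 20 kept their sign under all 15 alternatives and 10 did not. Turned signs were 0.012 (Slc2a1), 0.0010 (Pfkp), 0.047 (Gapdh), -0.011 (Pkm) and 0.017 (P4ha2) under quantile normalization, -0.0063 (Pkm) with arrays centred on their medians, and 0.0068 (Pdk1) and -0.047 (Ndrg1) with the mean of a gene's rows. With 1 array left out, the range was -0.013 to 0.097 for Egln1, -0.0047 to 0.055 for Ndrg1, -0.046 to 0.14 for Ddit4, -0.080 to 0.014 for P4ha2, -0.032 to 0.0094 for Pgk1 and -0.0073 to 0.14 for Taldo1. The glycolytic median minus the hypoxia median was -0.046, -0.069 to -0.015 with 1 array left out and -0.022 with the mean of a gene's rows; the hypoxia median ranged from -0.017 to 0.047 and the glycolytic one from -0.032 to -0.012 with 1 array left out. The causes of these shifts were not tested. The number of arrays and the unknown background limit the precision.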
